A study of Arabidopsis thaliana with 24 samples.

Results

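The 8 genes described here encode 6 dehydrins and 2 further late embryogenesis abundant (LEA) proteins of *Arabidopsis thaliana*. The dehydrins were *COR47* (AT1G20440), *ERD10* (AT1G20450), *ERD14* (AT1G76180), *XERO2* (AT3G50970, also called *LTI30*), *XERO1* (AT3G50980) and *RAB18* (AT5G66400), and the others were *LEA4-5* (AT5G06760) and *SAG21* (AT4G02380). They were taken by locus identifier from the 11747 genes listed in at least one of the deposited tables, and all 8 were listed in both tables and entered every test. RNA came from whole seedlings, 2 weeks old, of the *Ch1* mutant in the Col-0 background, which lacks chlorophyll a oxygenase and therefore chlorophyll b. Seedlings were equilibrated in water for at least 1 h, then kept in water under low light (LL, 30 µE) or high light (HL, 1000 µE) and taken at 0, 1, 2 or 4 h, with 3 libraries in each of the 8 groups. All 8 groups carried the same mutation and no wild type was among the 24 libraries, so that no change can be assigned to the mutation. No untreated group was taken at the later times. Within a light level the time in water, the time of day and the light itself therefore cannot be told apart. The study's RNA extraction methods describe each biological replicate as a pool of whole seedlings, and the labels name the libraries of a group only by replicate number. The p-values cover only how such libraries vary within groups, with the spread estimated over all groups of a fit.

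LEA proteins are hydrophilic, largely unstructured proteins that accumulate in maturing seeds and in vegetative tissue under drought, cold or salt, where they are thought to protect membranes and enzymes against loss of water. Dehydrins are the LEA group that carries the lysine-rich K-segment. In *Arabidopsis*, many dehydrin and LEA genes respond to abscisic acid through ABF-type bZIP factors, which bind the ABRE sequence with the core ACGTG, or to cold and drought through the CBF and DREB2 factors, which bind the CRT/DRE sequence with the core CCGAC.

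Both of the dehydrin pairs on chromosomes 1 and 3 stood side by side with no annotated gene in between. In the TAIR10.1 assembly with its RefSeq annotation, *ERD10* (chr1:7087903-7089606) and *COR47* (chr1:7084409-7086873) both lay on the minus strand and were 1029 bases apart. *XERO2* (chr3:18940643-18941611) and *XERO1* (chr3:18941925-18942940) both lay on the plus strand with 313 bases between them. *ERD14* (chr1:28586663-28587931), *RAB18* (chr5:26518277-26519447), *LEA4-5* (chr5:2089445-2090430) and *SAG21* (chr4:1046042-1047105) stood alone on the minus strand. The deposited tables hold no coordinates.

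Upstream sequences are shown for the *XERO2* and *XERO1* neighbours, whose transcripts moved in opposite directions, and for *LEA4-5*, whose window held the most motif matches among those that can be shown. Each run ends at the base before the annotated transcript start and reads 5′ to 3′ on the gene's own strand, and capitals mark matches, on either strand, to CCGAC (CRT/DRE core), ACGTG (ABRE core) and CACGTG (G-box, which contains the ABRE core). *XERO2* is chr3:18940429-18940642 on the plus strand (214 bases, shortened where the neighbouring gene AT3G50960 begins), *XERO1* is chr3:18941675-18941924 on the plus strand and *LEA4-5* is chr5:2090431-2090680 on the minus strand.
XERO2: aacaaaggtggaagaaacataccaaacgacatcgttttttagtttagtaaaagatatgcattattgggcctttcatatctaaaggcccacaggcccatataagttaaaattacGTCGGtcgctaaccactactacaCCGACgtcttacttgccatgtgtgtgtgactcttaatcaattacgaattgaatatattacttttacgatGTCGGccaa
XERO1: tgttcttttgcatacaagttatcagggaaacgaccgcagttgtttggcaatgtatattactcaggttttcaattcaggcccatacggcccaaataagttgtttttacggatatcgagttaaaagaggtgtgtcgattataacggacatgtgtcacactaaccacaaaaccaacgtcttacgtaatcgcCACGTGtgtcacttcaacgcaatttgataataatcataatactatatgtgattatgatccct
LEA4-5: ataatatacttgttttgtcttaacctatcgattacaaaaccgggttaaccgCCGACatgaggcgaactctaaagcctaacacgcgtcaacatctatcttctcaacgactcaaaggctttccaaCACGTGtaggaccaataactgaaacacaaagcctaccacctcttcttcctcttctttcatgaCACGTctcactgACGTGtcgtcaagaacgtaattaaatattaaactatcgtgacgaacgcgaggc
The *XERO2* run held 3 matches to CCGAC, whose first bases stood at -101, -78 and -9 from the transcript start, and none to ACGTG. The *XERO1* run held no CCGAC and a single palindromic CACGTG at -62. *LEA4-5* held 1 CCGAC at -199 and 4 ACGTG matches counted on both strands, of which the pair at -127 and -126 forms 1 CACGTG.

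Over all 27443 annotated genes, 12.0% of windows of 250 bases held CCGAC, 22.9% held ACGTG, 6.49% held CACGTG and 2.36% held the evening element AAAATATCT. In such windows *RAB18* held 3 ACGTG and 1 AAAATATCT, *ERD14* held 1 ACGTG, and *COR47*, *ERD10* and *SAG21* held none of the 4 motifs. The neighbouring gene AT5G66410 overlaps the *RAB18* window and reaches into *RAB18*, so these matches may lie inside that gene. The annotated starts of *COR47* and *ERD10* lie far from the coding sequence (1209 and 499 bases before the start codon), so the 1000 bases before the start codon were searched as well. There CCGAC was found in 6 of 8 members (39.4% of all genes), in every member but *XERO1* and *SAG21*. ACGTG was found in 8 of 8 (54.2% of all genes), CACGTG in 4 of 8 (15.1%) and AAAATATCT in 3 of 8 (7.26%). These windows do not all cover sequence upstream of the gene. That of *COR47* lay wholly within its own annotated gene. The start codon of *XERO1* stood 109 bases after its annotated start, and only 313 bases separate it from *XERO2*. Its window therefore reached into the *XERO2* gene. A match describes these letters only and is no evidence of binding.

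Library totals were 1163870 to 2070855 counts, and levels are given as CPM (counts scaled to a common library total) after one TMM scaling of the 24 libraries. Reads were tags from the 3′ end of transcripts, and levels are not compared between genes. The longest run of bases shared by any of the 28 pairs of member transcripts was 32. Of the tissue markers, all 5 shoot markers and all 6 root markers had values, and 1 of 9 seed storage markers (*SESA1*, 0 to 7.91 CPM per library) did. A gene is called here when the adjusted p of edgeR's quasi-likelihood test was under 0.05 and the change at least 2-fold. Before treatment, 4.10% of 10349 shared genes were already called between HL 0 h and LL 0 h, 388 of them lower in HL 0 h, and 0 of 8 members were (3 at an unadjusted p under 0.05, 0 by DESeq2). LL 2 h replicate 2 stood apart from its group, with chi-square values per degree of freedom of 7.84 and 8.58 against the other libraries and 2.27 between those. HL 0 h replicate 2 had 1795 CPM of the shoot marker *RBCS1A* and 69.3 of the root marker *DR4*, against 9184 and 7315 CPM and 233 and 274 CPM in its group. LL 2 h replicate 2 was low in the same markers, at 3829 and 67.4 CPM. Its group had 7920 and 8388 CPM of *RBCS1A* and 213 and 166 of *DR4*. Without LL 2 h replicate 2, members lower from 1 h to 2 h in LL went from 2 to 1, and without HL 0 h replicate 2, those lower at 2 h in HL went from 5 to 4. The other counts of members called in these comparisons were the same without either.

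In LL, transcripts of 6 members fell and 1 rose. At 1 h, 4 of 8 members were called lower (6.67% of all 10930 genes in that table) and 1 higher (3.36%). At 2 h these were 6 lower (7.92%) and 1 higher (4.36%), and at 4 h again 6 lower (10.4%) and 1 higher (5.63%). The median log2 fold change at 4 h was -2.15 over the 8 members and -0.01 over all genes tested.

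In HL, 7 members fell by 4 h, *SAG21* among them, and 1 rose. At 1 h, 3 of 8 members were lower (5.02% of 11166 genes) and 1 higher (3.88%), at 2 h 5 were lower (7.16%) and 1 higher (4.70%), and at 4 h 7 were lower (8.15%) and 1 higher (7.50%). The median log2 fold change at 4 h was -2.11 over the members and 0.04 over all genes. Without TMM scaling, the split of all genes at 4 h turned from 1134 lower and 615 higher to 763 lower and 1112 higher in LL, and from 910 and 837 to 670 and 1210 in HL, whereas *XERO1* was called higher at each time in both. RNA of whole seedlings cannot separate fewer cells that express a gene from less RNA per cell.

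**Figure D1:**
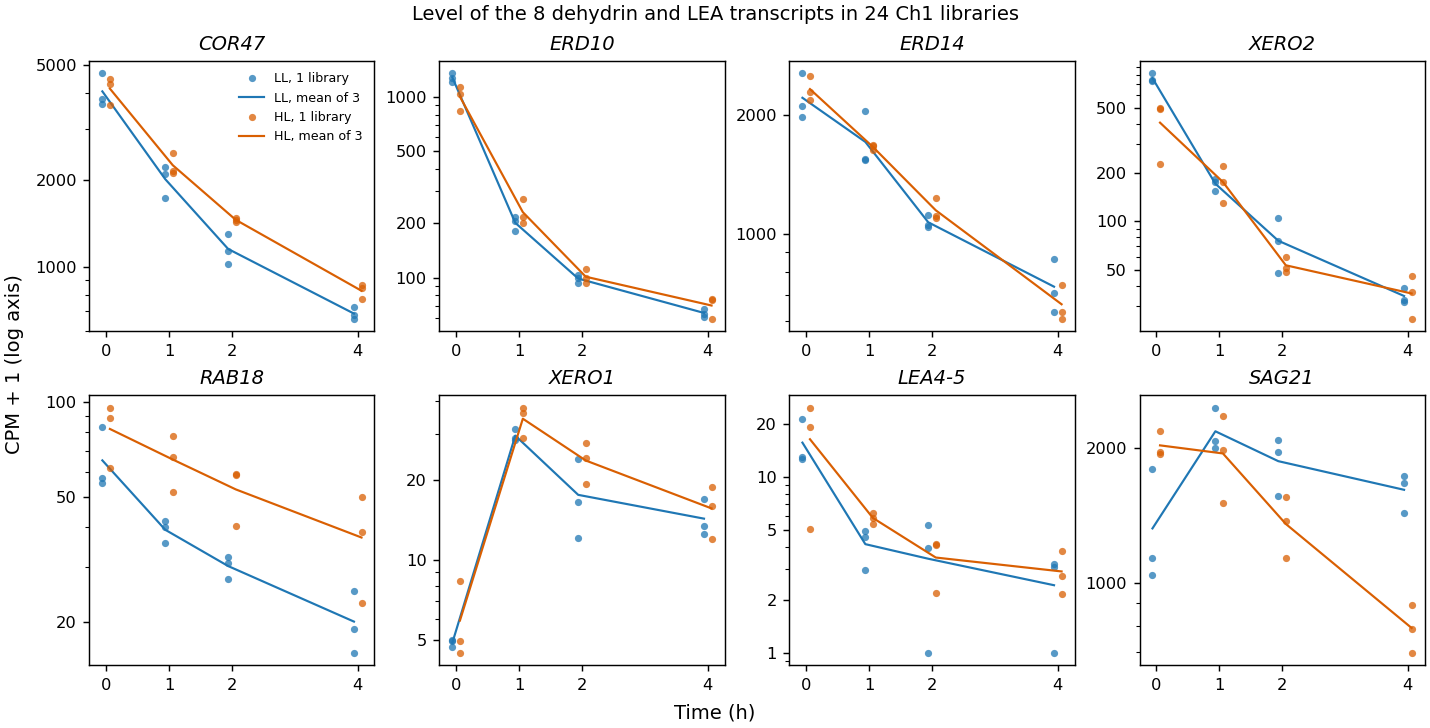
CPM + 1 on a log axis (its range differs between panels) against time for each of the 8 members in LL (blue) and HL (orange), with a point for each of the 24 libraries and lines through the means of 3. *COR47*, *ERD10*, *ERD14*, *XERO2*, *RAB18* and *LEA4-5* run downward at both light levels, *XERO1* peaks at 1 h, and *SAG21* runs downward in HL but not in LL.

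*ERD10*, an acidic dehydrin first found as early responsive to dehydration, showed among the largest falls. Its level in LL was 1217, 1274 and 1352 CPM at 0 h, 205.0, 215 and 180.2 at 1 h, 98.5, 103 and 92.1 at 2 h, then 59.9, 62.0 and 66.4 at 4 h. No library of one time overlapped those of another, and the 4 h mean was 4.90% of the 0 h mean. In HL the levels were 1137, 1034 and 840 CPM at 0 h, 273, 215 and 201 at 1 h, 97.9, 92.0 and 111 at 2 h, then 58.3, 75.0 and 74.0 at 4 h. Every later library was again below every 0 h library. The log2 fold change was -2.68 at 1 h and -3.70 at 2 h in LL, and -2.13 and -3.35 in HL. At 4 h it was -4.36 ± 0.14 (SE, n = 3) in LL (adjusted p = 3.38e-17) and -3.90 ± 0.16 in HL (adjusted p = 5.79e-16).

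*COR47*, its neighbour and close relative, fell at both light levels as well. In LL it was at 3800, 3671 and 4675 CPM at 0 h, 2086, 1731 and 2210 at 1 h, 1302, 1020 and 1130 at 2 h, then 659, 678 and 722 at 4 h, again with no overlap between times. In HL it held 4304, 4475 and 3636 CPM at 0 h, 2478, 2142 and 2114 at 1 h, 1429, 1474 and 1454 at 2 h, then 861, 771 and 840 at 4 h. The 4 h mean was 16.96% of the 0 h mean in LL and 19.9% in HL, with log2 fold changes of -2.57 ± 0.15 (adjusted p = 1.39e-12) and -2.37 ± 0.12 (adjusted p = 3.16e-14). At 1 h the change of *COR47* was close to the 2-fold limit, at -1.01 ± 0.14 in LL and -0.89 ± 0.11 in HL. The LL value was called and the HL value was not, and leaving out LL 0 h replicate 3 (-0.89) or LL 1 h replicate 2 (-0.92) ended the LL call, as did library totals alone (-0.999).

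*ERD14*, an acidic dehydrin that is also present in unstressed seedlings, showed the smallest fall among the members lower at 4 h in LL. Its level there was 2105, 1981 and 2554 CPM at 0 h, 1547, 1536 and 2045 at 1 h, 1114, 1037 and 1051 at 2 h, then 707, 629 and 859 at 4 h. The 1 h libraries overlapped those of 0 h (log2 fold change -0.37 ± 0.15, adjusted p = 0.0740), and at 4 h the change was -1.60 ± 0.15 (adjusted p = 7.68e-09). In HL, *ERD14* was at 2189, 2509 and 2288 CPM at 0 h, 1633, 1674 and 1673 at 1 h, 1109, 1231 and 1095 at 2 h, then 607, 741 and 633 at 4 h, a final change of -1.86 ± 0.12 (adjusted p = 1.53e-12). At 2 h the calls stood near the limit, at -1.04 in LL and -1.06 in HL, and were lost when LL 0 h replicate 3 (-0.92) and HL 0 h replicate 2 (-0.96), respectively, were left out. With library totals alone both calls were also lost, at -0.86 in LL and -0.83 in HL.

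*XERO2*, a basic dehydrin known to be induced by cold and abscisic acid, fell from 1 h on. In LL its level was 739, 818 and 735 CPM at 0 h, 181, 154 and 175 at 1 h, 74.7, 46.7 and 103 at 2 h, then 31.9, 31.0 and 38.0 at 4 h, with each time below the one before in every library. The log2 fold change at 4 h was -4.51 ± 0.21 (adjusted p = 4.82e-13), a 22.8-fold fall. In HL the 0 h libraries were unequal, at 494, 226 and 496 CPM, and *XERO2* was at 218, 175 and 129 at 1 h, 50.8, 47.5 and 59.4 at 2 h, then 24.1, 35.5 and 45.1 at 4 h. Even the low 0 h library lay above every later one. The change was -3.58 ± 0.36 at 4 h (adjusted p = 2.55e-05) and -3.83 without HL 0 h replicate 2, the low library. At 1 h in HL it was -1.23 ± 0.31 (adjusted p = 0.0210), a call that ended with only the 2 groups compared (-1.21) and when any one of these libraries was left out: replicates 1 (-1.05) and 3 (-1.06) of HL 0 h, and replicates 2 (-1.23) and 3 (-1.05) of HL 1 h.

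*XERO1*, the dehydrin gene directly downstream of *XERO2*, was the only member called higher, at every time and at both light levels. In LL it had 6, 7 and 5 counts at 0 h (3.68, 3.95 and 3.98 CPM) and 57, 34 and 35 counts at 1 h (27.9, 30.2 and 27.4 CPM). At 2 h it was at 15.6, 11.1 and 23.2 CPM and at 4 h at 11.5, 12.4 and 16.0. In HL the levels were 3.96, 7.30 and 3.46 CPM at 0 h, 35.0, 36.7 and 27.9 at 1 h, 23.3, 18.4 and 26.6 at 2 h, then 17.9, 11.04 and 15.03 at 4 h. All later libraries lay above all 0 h libraries of the same light level. The log2 fold change at 1 h was 2.86 ± 0.33 in LL (adjusted p = 5.01e-07) and 2.78 ± 0.30 in HL (adjusted p = 1.09e-07), at 2 h it was 2.13 and 2.22, and at 4 h it was 1.76 ± 0.35 (adjusted p = 3.77e-04) and 1.58 ± 0.34 (adjusted p = 6.61e-04). The decline after 1 h did not pass the test in either single step. In LL it was -0.73 (adjusted p = 0.180) from 1 h to 2 h and -0.37 (adjusted p = 0.608) from 2 h to 4 h. In HL these steps were -0.56 (adjusted p = 0.243) and -0.64 (adjusted p = 0.161). The whole change from 1 h to 4 h was not tested. All 4 h libraries lay below all 1 h libraries of the same light level.

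*RAB18*, a dehydrin widely used as a marker of the abscisic acid response, was called lower at 2 h in LL and at 4 h in HL. In LL it was at 56.4, 54.2 and 82.0 CPM at 0 h, 34.7, 40.9 and 39.2 at 1 h, 29.9, 31.1 and 26.4 at 2 h, then 24.2, 18.1 and 14.98 at 4 h. In HL it was at 87.6, 94.9 and 60.5 at 0 h, 77.1, 65.9 and 50.8 at 1 h, 58.2, 57.6 and 39.4 at 2 h, then 37.5, 48.8 and 22.0 at 4 h. The 1 h libraries overlapped those of 0 h in HL only. At 1 and 2 h all HL libraries were above all LL libraries, and at 0 and 4 h they overlapped. The log2 fold changes at 1, 2 and 4 h were -0.74 ± 0.20, -1.12 ± 0.20 and -1.74 ± 0.21 in LL, of which that at 1 h passed the adjusted p (0.00918) but was under 2-fold, and those at 2 h (adjusted p = 1.81e-04) and 4 h (adjusted p = 4.94e-07) were called. In HL they were -0.33 ± 0.24, -0.68 ± 0.25 and -1.20 ± 0.26, and only that at 4 h was called (adjusted p = 0.00173). These calls near the limit were lost without 1 library, at 2 h in LL without LL 0 h replicate 3 (-0.91) and at 4 h in HL without HL 4 h replicate 3 (-0.95), and both also with library totals alone (-0.94 and -0.98).

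*LEA4-5*, a LEA protein of group 4 that is induced by water deficit, was close to the limit of detection after 0 h. It had 19, 36 and 15 counts in the LL 0 h libraries, 4, 4 and 5 after 1 h, 0, 4 and 8 after 2 h, then 4, 4 and 0 after 4 h. In HL it had 42, 25 and 7 counts at 0 h, 9, 9 and 9 after 1 h, 6, 2 and 6 after 2 h, then 5, 2 and 3 after 4 h. The LL 0 h libraries were all above the later ones, whereas in HL the 7 counts of replicate 3 (4.03 CPM) lay below the 1 h libraries (4.40 to 5.26 CPM). The change was called at every time, with log2 fold changes between -2.29 and -3.32 in LL and between -1.65 and -2.99 in HL and standard errors of 0.46 to 0.60. The 1 h call in LL was lost without replicate 1 of that time (-1.96). The 1 h call in HL was lost when replicate 1 of 0 h (-1.14) or replicate 2 (-1.66) or 3 (-1.58) of 1 h was left out, and with only the 2 groups compared (-1.62).

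*SAG21*, a small mitochondrial LEA protein whose gene is known to respond to senescence and oxidants, was the member with different courses at the 2 light levels. In LL its level was 1794, 1132 and 1040 CPM at 0 h, 2005, 2078 and 2470 at 1 h, 2094, 1564 and 1958 at 2 h, then 1433, 1733 and 1676 at 4 h. The 1 h libraries were all above those of 0 h, and at 2 and 4 h they overlapped. The log2 fold changes in LL were 0.73 ± 0.17 (adjusted p = 0.00486), 0.52 ± 0.17 (adjusted p = 0.0340) and 0.28 ± 0.17 (adjusted p = 0.245), none of them 2-fold. Without LL 0 h replicate 1, the highest of its group, the 1 h value was 1.01 and was called.

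In HL, *SAG21* was at 1943, 1964 and 2186 CPM at 0 h, 1505, 1979 and 2360 at 1 h, 1554, 1370 and 1134 at 2 h, then 695, 890 and 785 at 4 h. The 1 h libraries overlapped those of 0 h (-0.066 ± 0.14, adjusted p = 0.815), and those of 2 and 4 h were all lower. The change was -0.62 ± 0.14 at 2 h (adjusted p = 0.00234), short of 2-fold, and -1.40 ± 0.15 at 4 h (adjusted p = 3.92e-08), where the mean was 38.9% of that at 0 h.

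**Figure D2:**
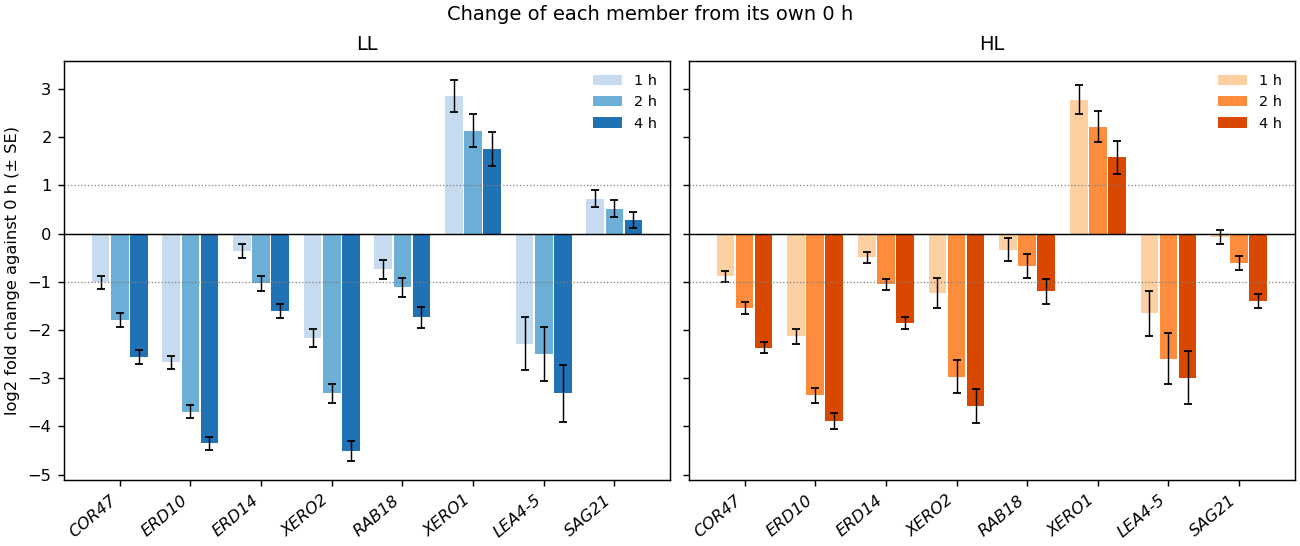
log2 fold change of each member against its own 0 h at 1, 2 and 4 h in LL (left) and HL (right). Bars start at 0, whiskers are standard errors of the edgeR fit with 3 libraries a group, and dotted lines mark 2-fold. *XERO1* stands above 0 at all times (1.58 to 2.86), *ERD10* and *XERO2* reach the lowest values (-3.58 to -4.51 at 4 h), and *SAG21* lies above 0 in LL and below 0 in HL.

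From one time to the next, fewer members passed the test than against 0 h. From 1 h to 2 h, 2 of 8 members were called lower in LL (0.622% of all genes) and 2 of 8 in HL (0.430%), and these were *ERD10* and *XERO2* at both light levels. *ERD10* changed by -1.02 ± 0.13 in LL (adjusted p = 2.26e-05) and -1.22 ± 0.15 in HL (adjusted p = 2.08e-05), and *XERO2* by -1.15 ± 0.19 (adjusted p = 0.00107) and -1.75 ± 0.34 (adjusted p = 0.0298). From 2 h to 4 h, 1 member was called lower in LL (0.686%), *XERO2* at -1.19 ± 0.21 (adjusted p = 0.00159), and 0 in HL by edgeR and by DESeq2 (0.734%), where 5 had an unadjusted p under 0.05 and 4 an adjusted p under 0.05 with a change under 2-fold. Of the 4 members, *COR47* had -0.82 ± 0.12, *ERD14* -0.80 ± 0.11, *SAG21* -0.78 ± 0.15 and *ERD10* -0.54 ± 0.16.

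The *ERD10* step in HL held under every alternative tried, whereas the other step calls did not. In LL, the *ERD10* step ended with library totals alone (-0.85) and when replicate 2 of 1 h (-0.97) or replicate 3 of 2 h (-0.98) was left out. The *XERO2* steps were lost without LL 2 h replicate 2 (-0.91, 1 h to 2 h) and LL 2 h replicate 3 (-0.88, 2 h to 4 h), and the former also with library totals alone (-0.97). In HL, the *XERO2* step from 1 h to 2 h was lost without any one of HL 1 h replicates 1 (-1.54) and 2 (-1.74), HL 2 h replicates 1 (-1.73), 2 (-1.68) and 3 (-1.85), and HL 4 h replicate 2 (-1.75).

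The difference between the light levels was tested as the HL change minus the LL change, each from its own 0 h. *SAG21* alone among the members was called. At 1 h, 0 of 8 members were called by edgeR (0.522% of 10349 genes, either direction) and by DESeq2, with 3 at an unadjusted p under 0.05, at 2 h 1 was lower (0.135%) and at 4 h 1 was lower (0.512%), in both cases *SAG21*. Its difference was -0.78 (95% interval -1.29 to -0.28, adjusted p = 0.147) at 1 h, -1.09 (-1.60 to -0.58, adjusted p = 0.0195) at 2 h and -1.65 (-2.16 to -1.14, adjusted p = 1.38e-04) at 4 h. *SAG21* levels in HL were above those in LL at 0 h (0.62 ± 0.18 on the log2 scale, adjusted p = 0.0332, under 2-fold) and below them at 2 and 4 h, with no overlap between the libraries at any of these 3 times, so that part of the difference in change lies in the 0 h libraries. The call at 4 h held without any of the 24 libraries in turn (-1.53 to -1.93). The call at 2 h was lost without any one of LL 0 h replicates 2 (-0.99) and 3 (-0.99), LL 2 h replicates 1 (-1.01) and 3 (-1.06) and HL 2 h replicate 3 (-0.98), and 1 h was called without LL 0 h replicate 1 (-1.07, adjusted p = 0.0264).

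For the other 7 members the difference was between -0.12 and 0.94 at 1 h, -0.051 and 0.49 at 2 h, and at 4 h between -0.22 and 0.96, none past the test. *XERO2* had 0.96 at 4 h (95% interval 0.07 to 1.86, adjusted p = 0.251) and *ERD10* 0.49 (0.09 to 0.89, adjusted p = 0.169). Without the low HL 0 h replicate 2, *XERO2* had 0.67 (adjusted p = 0.351). For *COR47* the interval at 4 h was -0.12 to 0.59 and for *ERD14* -0.59 to 0.15. The intervals of *XERO1* (-1.16 to 0.85), *RAB18* (-0.12 to 1.27) and *LEA4-5* (-1.69 to 2.42) hold a difference of 2-fold, as does that of *XERO2*, and the data allow a difference of that size for these 4. At 0 h, *XERO2* in HL was -0.91 ± 0.26 from LL (adjusted p = 0.0483), under 2-fold, and -0.63 (adjusted p = 0.167) without that library. It was called with library totals alone (-1.03) and without HL 0 h replicate 1 (-1.07) or 3 (-1.07).

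**Figure D3:**
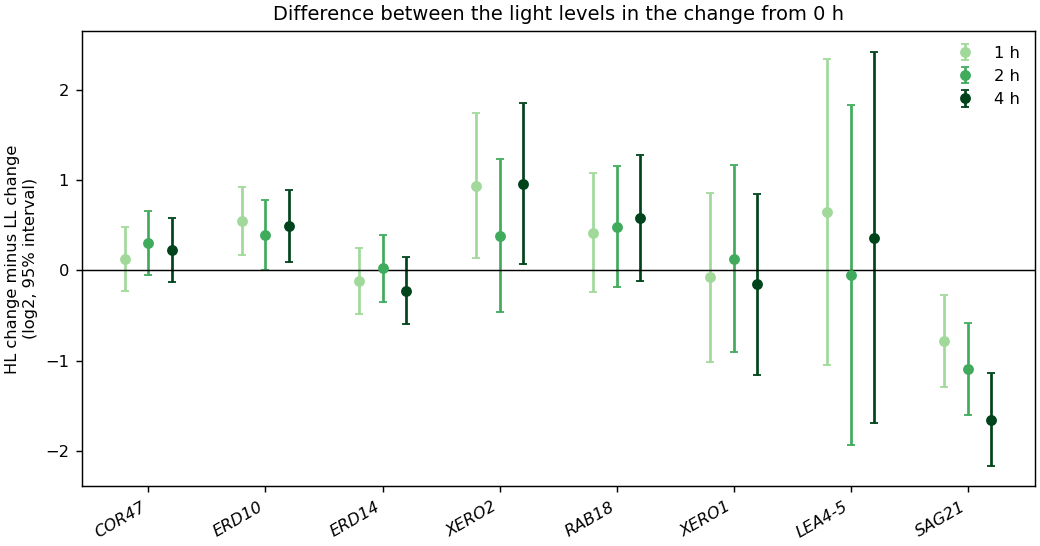
HL change minus LL change, each from its own 0 h, on the log2 scale at 1, 2 and 4 h (light to dark green) with 95% intervals. The 3 points of *SAG21* (-0.78, -1.09 and -1.65) lie below 0 with their intervals, and *LEA4-5* has the widest intervals (-1.69 to 2.42 at 4 h).

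Among the rest of the family, 42 further LEA genes were listed from general knowledge and 17 had values in each table. In LL, 5, 8 and 8 of 17 were lower at 1, 2 and 4 h and 1 was higher at each time. In HL, 2, 7 and 7 were lower and 1, 0 and 0 higher by edgeR, with 1, 0 and 1 higher at an unadjusted p under 0.05 and 0 by DESeq2 at each time. The background shares are those given above for the same comparisons. At 4 h their median log2 fold change was -0.73 in LL and -1.37 in HL.

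AT2G23120, of the PvLEA18 class, and *LEA14* (AT1G01470), an atypical LEA_2 protein, fell at every time. AT2G23120 went from 2972, 2570 and 3607 CPM at LL 0 h to 169, 191 and 218 at LL 4 h, and from 3042, 3611 and 3169 at HL 0 h to 258, 239 and 244 at HL 4 h. Its log2 fold change at 4 h was -3.99 ± 0.18 in LL (adjusted p = 3.95e-14) and -3.77 ± 0.14 in HL (adjusted p = 9.38e-17). *LEA14* had -3.31 ± 0.16 (adjusted p = 4.3e-14) and -2.89 ± 0.16 (adjusted p = 2.79e-13). AT3G02480, a small LEA_4 gene, was lower at 2 and 4 h in both, with -2.87 and -2.34 at 4 h. Its LL call at 2 h was lost when replicate 3 of 0 h (-1.86) or replicate 1 (-1.78) or 3 (-2.45) of 2 h was left out. Its HL call at 2 h was lost when replicate 1 (-1.81) or 2 (-1.38) of 0 h or replicate 2 (-1.75) or 3 (-1.66) of 2 h was left out, and in one fit of all 24 libraries (-1.87, adjusted p = 0.0522). AT2G44060, of the LEA_2 class, was called only at 2 h in LL (-1.02), and not when replicate 1 of 0 h (-0.94) or replicate 2 of 2 h (-0.88) was left out or with library totals alone (-0.84).

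*COR15A* and *COR15B*, neighbouring genes for cold-regulated LEA proteins of the chloroplast stroma, had 0 to 3 counts per library at LL 4 h. *COR15A* went from 226, 160 and 367 CPM at LL 0 h to 1.65, 0 and 1.07 at LL 4 h, and from 244, 239 and 172 at HL 0 h to 4.48, 19.2 and 1.74 at HL 4 h. *COR15B* went from 41, 32 and 28 counts at LL 0 h to 1, 1 and 1 at LL 4 h, and from 26, 6 and 19 counts at HL 0 h to 9, 11 and 4 at HL 4 h. Summed over the group, *COR15B* was 34.2-fold lower at LL 4 h (95% counting interval 11.4 to 168) and 2.03-fold lower at HL 4 h (1.22 to 3.44). Its HL change minus LL change at 4 h was 4.01 (95% interval 2.37 to 5.66, adjusted p = 0.00214), the only one of 15 shared LEA genes called (2.36% of all genes higher). At 0 h, *COR15B* was at 4.38 to 14.7 CPM in HL and 18.05 to 25.1 CPM in LL, without overlap, though not called. Part of the difference in change therefore lies in the 0 h libraries. *COR15B* was also the gene called higher at HL 1 h (1.16 ± 0.38, adjusted p = 0.0369), a call that was lost without any one of HL 0 h replicates 2 and 3, HL 1 h replicates 1 and 3, HL 2 h replicate 3 and HL 4 h replicate 1 (0.72 to 1.26), by DESeq2 (1.198) and with only the 2 groups compared (1.17). Its lower call at HL 2 h was lost when replicate 1 or 3 of 0 h or replicate 2 or 3 of 2 h was left out (-1.197 to -1.63) and with library totals alone (-1.38). For *COR15A*, the lower call at LL 1 h was lost without LL 0 h replicate 3 (-0.97) and with only the 2 groups compared (-1.34), and that at HL 2 h without any one of the HL 2 h libraries (-2.45 to -2.63). These 2 paralogs are similar, and their counts may be partly shared.

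The remaining calls were for genes under 10 CPM in every group, named here after their values were seen. *LEA3*, *LEA7* and *LEA4-2* were lower at 1 or more times at both light levels and AT3G15670 at HL 4 h. Several of these calls were lost when single libraries were left out. Those of *LEA3* in LL and at HL 2 h were lost without any one of several libraries (LL 1 h -1.95 to -2.76, LL 2 h -2.14 to -3.19, LL 4 h -2.47 to -2.55, HL 2 h -2.14 to -2.26), at least 2 of them 0 h libraries in each case. *LEA7* at HL 2 h was lost when replicate 1 of 0 h or replicate 1 or 3 of 2 h was left out (-3.42 to -3.47), and AT3G15670 without HL 0 h replicate 1 (-4.62, adjusted p = 0.110). *LEA4-2* was lost at LL 4 h without LL 0 h replicate 2 (-1.64). At HL 4 h it was lost when replicate 1 (-0.97) or 2 (-1.38) of 0 h or replicate 2 (-1.17) or 3 (-1.18) of 4 h was left out, by DESeq2 (-1.39), with library totals alone (-1.16) and with only the 2 groups compared (-1.36). AT2G03850 was the gene higher in LL, with group means of 0.19 CPM at 0 h and 8.04 CPM at 4 h. Its 1 h call was lost by DESeq2 (3.57), with the filterByExpr filter (3.32) and without any one of the LL 0 h libraries, LL 1 h replicates 1 and 3 and LL 2 h replicate 1 (2.86 to 5.24). Against these, *HIRD11*, a histidine-rich dehydrin with group means of 2256 to 3204 CPM, was not called at any time (-0.35 in LL and -0.48 in HL at 4 h), nor was *DI21*, a drought-induced LEA_3 gene (-0.19 and -0.14).

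**Figure D4:**
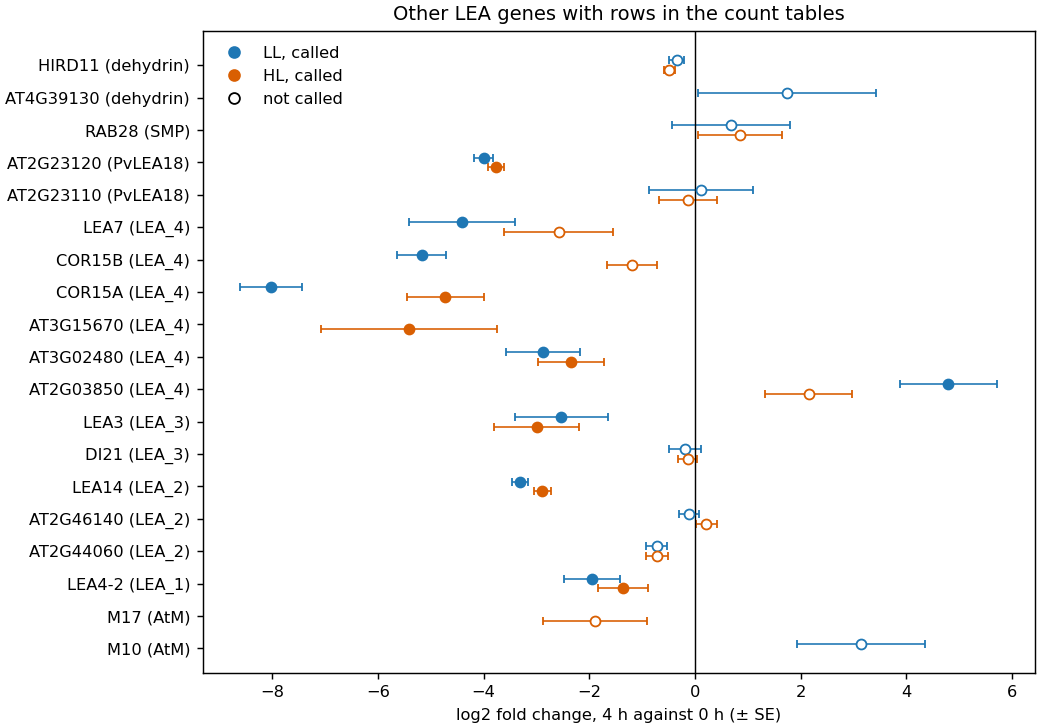
log2 fold change at 4 h against 0 h of the other LEA genes with values, by class, in LL (blue) and HL (orange). Whiskers are standard errors with 3 libraries a group, and filled points were called. AT2G23120, *LEA14* and *COR15A* lie far to the left at both light levels, *HIRD11* and *DI21* lie near 0, and *COR15B* differs between LL (-5.17) and HL (-1.19).

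Of 15 genes for factors that act on dehydrin and LEA promoters, 9 had values in LL and 11 in HL. In LL, 3 were lower at 1, 2 and 4 h (6.67%, 7.92% and 10.4% of all genes), and in HL 4 were (5.02%, 7.16% and 8.15%). By edgeR and by DESeq2 0 were higher, and at an unadjusted p under 0.05 up to 2 were, all of them *ABF* genes. *DDF1* and *DDF2*, relatives of the CBF factors, and *CBF2* were lower at both light levels, and *CBF1*, named after its values were seen since it stayed under 10 CPM, in HL. The *CBF1* call at HL 1 h was lost when replicate 1 or 2 of 0 h or replicate 2 of 1 h was left out (-5.08 to -5.41). *DDF1* had 143, 108 and 99 counts at LL 0 h and 2, 1 and 2 at LL 1 h. The ratio of summed counts per summed library total was 66.4 (95% counting interval 28.2 to 206). At HL 0 h it had 243, 345 and 263 counts, at HL 1 h 8, 4 and 6, and at HL 4 h 0 in all 3 libraries. With 3 counts per group as the floor, this was at least 271-fold lower. *DDF1* was also higher at HL 0 h than at LL 0 h (1.25 ± 0.22, adjusted p = 0.00186). *CBF2* went from 29 to 2 summed counts at 1 h in LL and from 77 to 1 in HL. *CBF1*, *CBF2* and the DDF genes have close paralogs, between which counts may be split.

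The abscisic acid response factors had other values. *ABF1*, *ABF2*, *ABF3* and *ABF4* and the CBF activator *ICE1* were not called at any time at either light level, with log2 fold changes at 4 h of -0.59 to 0.82 in LL and -0.13 to 0.59 in HL. *ABF4* had 0.47 at LL 1 h (adjusted p = 0.0309) and 0.60 at HL 1 h (adjusted p = 0.00901), *ABF3* 0.74 at LL 4 h (adjusted p = 0.0259) and *ABF1* -0.59 at LL 4 h (adjusted p = 0.0486), all under 2-fold. The seed storage marker *SESA1* fell alongside the members, from 2.45 to 7.16 CPM at LL 0 h to 0 to 1.10 at LL 4 h and from 1.46 to 7.91 at HL 0 h to 0 at HL 4 h, while the other 8 seed markers had no values. The summed shoot markers went from 20487 to 21736 CPM at LL 0 h to 8866 to 11278 at LL 4 h, and from 7525 to 15280 at HL 0 h to 15538 to 21984 at HL 4 h. The single shoot markers differed. At LL 4 h 3 of 5 were called lower, *RBCS1A* (-1.098), *RCA* (-1.037) and *CA1* (-1.957). *SBPASE* (-0.457) and *GLDP1* (-0.148) were not called there. At HL 4 h 2 of 5 were called higher, *SBPASE* (1.202) and *GLDP1* (1.532). *RBCS1A* (0.512), *RCA* (0.499) and *CA1* (0.613) were not called at HL 4 h. The summed root markers went from 686 to 1069 CPM at LL 0 h to 536 to 613 at LL 4 h, without overlap. Singly, 2 of 6 were called lower at LL 4 h (10.4% of all genes), *DR4* (-1.27) and *CASP1* (-1.002). *PER45* (-0.23), *PER57* (-0.15), *PYK10* (-0.64) and *EXPA7* (0.77) were not called there. In HL the summed root markers were at 663 to 918 CPM at 0 h, 508 to 532 at 2 h, without overlap, and 482 to 689 at 4 h. At HL 4 h 1 of 6 was called lower (8.15% of all genes), *CASP1* (-1.005), and 1 higher (7.50%), *EXPA7* (1.16). The part of seed, shoot and root tissue in the members' changes was not tested. The 4 reference genes with values had log2 fold changes of -1.09 to 0.59 and none was called. *UBQ10* was nevertheless higher at every time at both light levels (0.42 to 0.59, adjusted p 1.76e-04 to 0.0154), under 2-fold. No other reference gene had an adjusted p under 0.05 against 0 h. The lowest value was that of *PP2AA3* at HL 1 h, which had 1, 2 and 5 counts there.

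Over the 8 group means, the 6 members that fell at both light levels had similar profiles, with Pearson r of log2(CPM + 1) from 0.75 to 0.99 over their 15 pairs. *SAG21* had r of 0.13 to 0.57 with these 6, and *XERO1* had r of -0.71 to 0.17 with the other members. Each r is over 8 points that share the time course and the scaling of 24 libraries, and is a description. Outside the 8, and among 6192 genes with a mean of at least 10 CPM, the 3 genes most like *ERD10* were *ERD7* (r = 0.998), also named for early response to dehydration, *FUC95A* (0.991) and *GCL1* (0.990). For *COR47* they were AT5G55180 (0.995), the cold-induced *KIN1* (0.995), which has a close copy, and *CAB2* (0.992), and for *ERD14* AT2G15220 (0.995), *CAB3* (0.995) and AT5G01750 (0.991). *CAB2* and *CAB3* encode chlorophyll a/b-binding proteins of the light-harvesting antenna and are near-identical copies, so their counts are uncertain.

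*XERO2* was most like AT1G16850 (0.994), AT1G72180 (0.991) and *CSLC04* (0.985), and *RAB18* most like AT1G11380 (0.982), *MIOX2* (0.972) and *ASA2* (0.967). *LEA4-5* was most like *PME1* (0.996), *SHV3* (0.996) and AT3G55840 (0.995). The rise and decline of *XERO1* was closest to *THA1* (0.992), a threonine aldolase gene, AT4G19860 (0.985) and AT3G26440 (0.981). *SAG21* was closest to AT5G08670 (0.992), AT2G46490 (0.981) and *PIRL3* (0.972). Taken from one replicate number at a time, these r had SDs of 0.0042 (*KIN1* with *COR47*) to 0.19 (*PIRL3* with *SAG21*). For *LEA4-5* the SDs were 0.091 to 0.125, more than the gaps between its 3 genes, so their order is uncertain. The CPM minimum was not applied to the members, and *LEA4-5* had group means of 1.42 to 4.84 CPM after 0 h.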

How the data were processed

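Total RNA of whole *Ch1* seedlings was prepared with Trizol, and 3′ tag libraries were made with the bulk MARS-seq protocol. According to the study's methods, the authors trimmed reads with cutadapt, mapped them to Araport 11 with STAR 2.4.2a, counted them with HTSeq-count and kept genes with a minimum number of reads in at least one library. Whether molecular identifiers were collapsed is not given in the sources used here. The deposited tables, one for each light level, hold counts per gene for each library, the authors' normalized signal (counts divided by DESeq2 size factors) and their regularised log2 values. Only the counts were used. Columns of the authors' own fold changes and p-values were not used, and 0 columns of per-sample values were left unassigned.

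Counts of each light level (12 libraries) were fitted with edgeR 4.0.16 (R 4.3.3, limma 3.58.1) on all listed genes, with TMM scaling, time as a factor and a robust quasi-likelihood F test. The HL change minus the LL change and the 0 h groups were tested in one fit of 24 libraries over the 10349 genes of both tables, with group as a factor. p-values were adjusted by Benjamini-Hochberg over all genes of a fit. Standard errors are the log2 fold change divided by the root of F, and exact tests on single genes were not used since 3 against 3 libraries cannot go below p = 0.1. Fold values with a counting interval or floor use summed counts over library totals, without TMM scaling. Counting intervals and floors cover counting error only. Genes were matched by locus tag to TAIR10.1 (11656 of 11747), which also supplied coordinates and sequences.

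The 8 members and the lists were chosen with earlier results of these data known. All members were described. Of the other lists, genes called at any time with a group mean of at least 10 CPM were named, and for each member the 3 genes with the highest Pearson r. On simulated counts with 100 genes changed 2-fold and 100 changed 4-fold, the test called 45% and 96% at 4 h in LL, 46% and 98% in HL, and 28% and 95% for the difference between light levels. A call needs an estimate of at least 2-fold, which a true 2-fold change can miss at any power. By the adjusted p alone, 64% (LL), 68% (HL) and 33% (difference) of the 2-fold changes passed. The changed genes all had a mean of at least 10 CPM, so these shares do not cover genes with lower means. The alternatives were RLE scaling, library totals alone, DESeq2 1.42.0, the filterByExpr filter, a replicate block, one fit of all 24 libraries, only the 2 groups compared, the adjusted p alone, leaving out each library in turn, and a pseudocount of 5 or no CPM filter for the profiles.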

Additional observations from a re-analysis of the deposited data

Results flagged for a closer look

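*SAG21* changed differently at the 2 light levels, by the test of that difference in the fit of 24 libraries. Its HL change minus LL change was -1.09 at 2 h and -1.65 at 4 h on the log2 scale. *COR15B*, from the list of other LEA genes, differed in the opposite direction, with 4.01 at 4 h, a value that rests on 3 summed counts at LL 4 h and 24 at HL 4 h. For both genes, part of the difference in change lies in the 0 h libraries. Groups of 3 libraries were too small for a formal search for outlying samples. LL 2 h replicate 2 and HL 0 h replicate 2, described above, were singled out by their values without such a search.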

How the results depend on the processing

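At 4 h the members numbered 6 lower and 1 higher in LL and 7 lower and 1 higher in HL also under the replicate block, DESeq2 and RLE scaling, and 6 lower in HL with library totals alone and with the filterByExpr filter. Replicate numbers did not pair the later libraries with their own 0 h. Of 18 correlations between same-numbered libraries of a later time and their own 0 h, 5 were over 0.1 (range -0.31 to 0.19) and 8 were the best for their number. Across light levels, LL 2 h and HL 0 h had higher values, 0.43 for replicate 2 and 0.31 for replicate 3. With the replicate block 2 calls of single genes were lost, both of *LEA3* in LL, at -2.72 (adjusted p = 0.0682) at 1 h and -2.78 (adjusted p = 0.0525) at 2 h.

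With library totals alone, the median of all genes shifted by -0.13 to 0.26 on the log2 scale, and by -0.03 to 0.02 under RLE scaling. *SAG21* at HL 1 h then read 0.085 in place of -0.066, members lower from 1 h to 2 h in LL went from 2 to 0, members lower at HL 0 h went from 0 to 1, and 2 other LEA genes (LL 4 h), 1 other LEA gene (HL 4 h) and 1 regulator (LL 4 h) were called higher. The split of all genes into lower and higher also moved, to 646 and 733 from 866 and 477 (LL 2 h), 415 and 626 from 560 and 433 (HL 1 h), 547 and 883 from 800 and 525 (HL 2 h), 35 and 37 from 68 and 15 (LL, 1 h to 2 h), 55 and 80 from 75 and 61 (LL, 2 h to 4 h), 38 and 32 from 48 and 23 (HL, 1 h to 2 h), 2 and 73 from 7 and 47 (difference at 1 h), and 80 and 197 from 53 and 244 (difference at 4 h). Higher calls at HL 0 h went from 36 to 14. DESeq2 moved the higher calls of the difference at 1 h from 47 to 105 and of HL, 1 h to 2 h, from 23 to 14.

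By the adjusted p alone, members higher were 2 at LL 1 h and 2 at LL 2 h, members lower were 5 at HL 1 h, 4 (LL, 1 h to 2 h), 4 (LL, 2 h to 4 h), 5 (HL, 1 h to 2 h) and 4 (HL, 2 h to 4 h), 1 member was lower and 1 higher at HL 0 h, and 1 regulator was higher at each of LL 1 h, LL 4 h and HL 1 h. With only the 2 groups compared, 1 member was lower and 0 other LEA genes higher at HL 1 h, and 2 other LEA genes were higher at LL 4 h. The filterByExpr filter left 0 other LEA genes higher at LL 1 h and 5 lower at LL 4 h. DESeq2 called 3 other LEA genes lower and 0 higher at LL 1 h, 0 higher at HL 1 h, and 2 with a larger HL change at 4 h, and it gave no adjusted p for 14 results of *LEA3*, *LEA7*, AT3G15670, *CBF1* and *CBF2*.

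Leaving out each library in turn gave 1 to 2 members higher at LL 1 h, 1 to 2 lower from 1 h to 2 h in LL and in HL, 0 to 1 lower from 2 h to 4 h in LL, 1 to 3 lower at HL 1 h, and 0 to 1 for the light difference at 1 h, at 2 h and for the lower call at 0 h. *SAG21* at HL 1 h ranged from -0.22 to 0.10. Other LEA genes lower ranged from 3 to 6 (LL 1 h), 2 to 4 (HL 1 h) and 3 to 8 (HL 2 h), and higher from 0 to 1 (LL 1 h, HL 1 h, HL 4 h) and 1 to 2 (LL 2 h, LL 4 h). Of the 24 genes named for their profile, 21 were kept with a pseudocount of 5 and 23 without the CPM filter. The cause of these shifts was not tested. *LEA4-5*, *XERO1* and *COR15B* rest on few counts, which limits their precision.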
